A study of Mus musculus with 58 samples.

Results

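The nuclear genes of oxidative phosphorylation were taken as all genes whose symbol marks a subunit of complex I (Nduf a, b, c, s and v), complex II (Sdh a to d), complex III (Uqcr), complex IV (Cox4 to Cox8) or the ATP synthase, complex V (Atp5). The rule went by symbol alone and took in no measured value, though it was chosen with earlier results of these data known. The rule found 81 of 20095 genes: 35 of complex I, 4 of complex II, 8 of complex III, 17 of complex IV with Ndufa4, and 17 of complex V. Atp5s and Atp5sl, named Dmac2l and Dmac2 in RefSeq, are counted in complex V by their symbol alone. All material came from Bl/6 mouse small-intestinal organoids, 3-dimensional epithelial cultures grown from intestinal stem cells, and was measured in 50 bulk libraries by CEL-seq, which counts transcripts at their 3' ends. Whole organoids were collected after 6 h and after 96 h, in 6 groups of 3 libraries at each time. These were Wnt, Notch and Mek inhibition (IDM), Wnt, Notch and EGFR inhibition (IDE), Wnt and Notch inhibition (ID), Mek inhibition (Mi), EGFR inhibition (Ei), and no inhibitor in ENR medium (EGF, Noggin and R-spondin). The sorted set held 2 libraries each of Dclk1+ cells from Dclk1-GFP organoids, Lgr5+ cells from Lgr5-GFP organoids and Lgr5+ cells from Lgr5-DTR organoids, in each case with EGFR inhibition (Ei) and in ENR, beside 2 whole ENR organoid controls. The sources used here name neither the inhibitors, their doses, nor the treatment time of the sorted cells. Nothing says that replicates came from separate animals or cultures, so p-values measure the spread between these libraries, which may be technical.

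Depth was 448292 to 2763423 counts a library at 6 h and 668893 to 3599554 in the sorted set. At 96 h it was 158135 to 1738425, with 158135 to 554681 in Ei and 231990 to 337789 in IDM. Dclk1, which marks tuft cells, averaged 727.9 ± 91.3 CPM in Dclk1+ ENR cells and 3.77 ± 1.53 CPM in whole ENR organoids (SD, n = 2 each). Lgr5, which marks crypt stem cells, averaged 45.7 ± 11.6 CPM in Lgr5+ ENR cells (n = 4) and 44.6 ± 5.51 CPM in whole ENR organoids (SD, n = 2). The log2 change was 0.03 (edgeR adjusted p = 0.98), so Lgr5 mRNA did not set these libraries apart, and they are called Lgr5+ by their label. Summed over 7 stem cell markers with Lgr5 among them, whole ENR organoids were at 442.7 to 469.3 CPM. Lgr5+ ENR cells lay above that, at 604.5 to 677.6 CPM in the GFP line and 614.2 to 666.8 CPM in the DTR line. Within each time the ENR, Ei and Mi libraries carry one set number and the ID, IDE and IDM libraries another, so that ID against ENR cannot be told apart from the library set.

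Oxidative phosphorylation passes electrons from NADH through complex I, or from succinate through complex II, to complex III, cytochrome c and complex IV, where oxygen is reduced, and complexes I, III and IV pump the protons that drive the ATP synthase. Most subunits are encoded in the nucleus and imported, while a core set is made inside the mitochondrion. None of the 13 mitochondrially encoded genes looked for by symbol had a row in any set, so they were not analysed here. In the intestine, crypt stem cells, absorptive cells and secretory cells are known to differ in how far they rely on mitochondrial respiration.

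Nuclear respiratory genes share a small vocabulary of promoter motifs, and many members moved together at 96 h, so 4 promoters are shown. Atp5g3 and Cox6a1 were higher in IDE than in ID and together hold 4 of the 5 motifs searched. Atp5f1 holds the motif missing from those, and Cox7a1 is the member that fell there. RefSeq (GRCm38.p6) holds an entry of 250 bases before and 50 bases after the gene start for 68 of the 81 members. The motifs, on both strands, were GCGCATGCG for NRF1, CCGGAAG for ETS factors such as GABP, AAGATGGC for YY1, TCAAGGTCA for oestrogen-related receptors (ERR) and CACGTG, the E-box of Myc and USF factors. Each sequence runs 5′ to 3′ along the gene, with motif matches in capitals.
Atp5g3, chr2:73911277-73911576, minus strand, E-box and ERR matches: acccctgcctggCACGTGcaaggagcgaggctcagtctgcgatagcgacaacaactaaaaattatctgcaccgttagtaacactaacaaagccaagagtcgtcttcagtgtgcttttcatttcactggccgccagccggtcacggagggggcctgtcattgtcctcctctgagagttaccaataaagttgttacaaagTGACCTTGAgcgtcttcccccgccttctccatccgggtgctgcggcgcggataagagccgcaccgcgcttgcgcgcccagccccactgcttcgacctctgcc
Cox6a1, chr5:115348909-115349208, minus strand, NRF1 and ETS matches: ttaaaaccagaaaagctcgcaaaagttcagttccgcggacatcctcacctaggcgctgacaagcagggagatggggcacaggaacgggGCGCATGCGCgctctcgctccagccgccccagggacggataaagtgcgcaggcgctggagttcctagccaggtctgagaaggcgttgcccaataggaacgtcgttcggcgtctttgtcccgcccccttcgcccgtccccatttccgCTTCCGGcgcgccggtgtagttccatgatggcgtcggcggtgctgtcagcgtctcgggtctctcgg
Atp5f1, chr3:105959214-105959513, minus strand, E-box and YY1 matches: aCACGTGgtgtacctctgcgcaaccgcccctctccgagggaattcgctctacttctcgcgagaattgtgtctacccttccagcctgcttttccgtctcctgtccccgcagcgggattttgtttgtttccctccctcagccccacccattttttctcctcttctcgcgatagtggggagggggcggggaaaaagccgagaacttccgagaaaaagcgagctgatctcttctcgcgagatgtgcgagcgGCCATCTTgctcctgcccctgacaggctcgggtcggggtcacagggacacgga
Cox7a1, chr7:30183921-30184220, plus strand, no match: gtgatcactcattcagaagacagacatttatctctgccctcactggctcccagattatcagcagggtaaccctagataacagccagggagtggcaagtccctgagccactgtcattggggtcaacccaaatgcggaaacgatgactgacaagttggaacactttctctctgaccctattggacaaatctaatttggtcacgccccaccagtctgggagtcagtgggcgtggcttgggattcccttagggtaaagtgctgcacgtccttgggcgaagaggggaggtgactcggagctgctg
The YY1 match of Atp5f1 starts 3 bases before the gene start, and the ERR match of Atp5g3 starts 52 bases before it. Of the 68 members with an entry, 16 (23.5%) held the ETS motif, against 9.93% of all 27025 genes with an entry. A gene was counted if any of its entries held the motif. These 27025 genes were not limited to those tested here. The YY1 motif was in 11 members (16.2%), against 3.19% of all genes with an entry, and the NRF1 motif in 8 (11.8%), against 1.95%. The E-box was in 7 (10.3%), against 8.09%, and the ERR motif in 2, Atp5g3 and Sdhd (2.94%), against 0.466%. By complex, the YY1 motif was in 7 of 31 members with an entry of complex I and 4 of 16 of complex V, and in none of complexes II to IV. In all, 34 members held at least 1 motif. A match is a string of letters and not a measured binding site.

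Of the 81 members, 75 passed the filter on low counts at 6 h and 75 at 96 h, and 77 passed in the sorted set. Cox6a2, Cox6b2, Cox7b2 and Cox8c, isoform genes of complex IV known from muscle and testis, passed in no set. Ndufs5 (3 counts over all 6 h libraries, 1 at 96 h, 222 in the sorted set) and Cox7c (100, 54 and 43882 counts) passed only in the sorted set, so levels are not compared across the sets. Levels are given as CPM after TMM scaling, and so are shares of a library's counts. In bulk libraries, more cells of a type and more RNA per cell cannot be told apart. Summed over all members, the level at 96 h was 41658, 45014 and 38308 CPM in the IDE libraries, 33576, 27995 and 29474 in IDM, and 25397, 26471 and 24703 in ID. It was 23446, 23199 and 21979 in Mi, 21821, 23643 and 26421 in Ei, and 27381, 24372 and 25710 in ENR. Every IDE library stood above every library of the other 5 groups, and every IDM library above every ID, Mi, Ei and ENR library. The order of IDE and IDM against Mi, Ei and ENR cannot be told apart from the library set. At 6 h the sums were 39502, 33689 and 32696 CPM in IDM, 31707, 29363 and 29435 in IDE, and 28729, 27113 and 27651 in ID. They were 27139, 31664 and 29081 in Mi, 39719.8, 29327 and 30839 in Ei, and 27216, 25918 and 25806 in ENR. There the Ei libraries lay above ENR and the IDM and IDE libraries above ID, while Mi overlapped ENR through its library 1. A few members carried much of these sums. Cox8a, a subunit of complex IV, made up 11.4% of the members' CPM at 6 h and 10.1% at 96 h. Atp5g3, which encodes the c subunit of the ATP synthase rotor, made up 8.74% and 8.77%. These are shares of 3'-end counts and not levels per length.

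**Figure D1:**
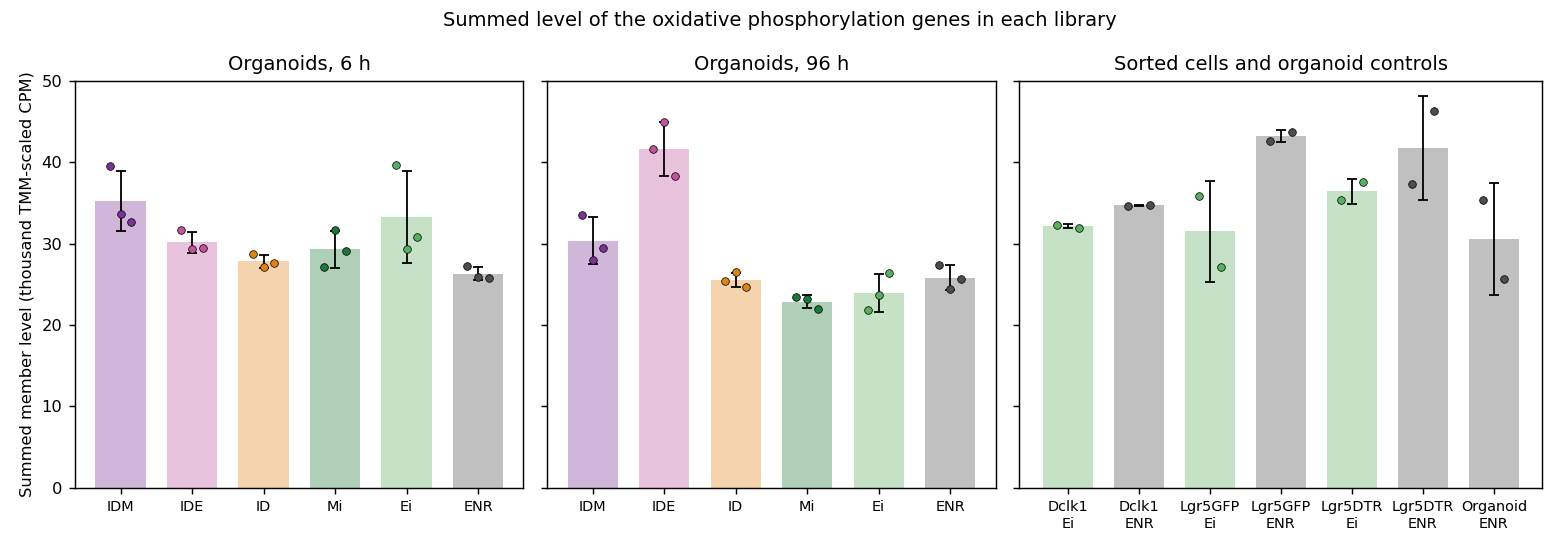
Summed level of the member genes (CPM after TMM scaling, axis unit as labelled) by group at 6 h, at 96 h and in the sorted set. Bars are means ± SD over libraries and points are single libraries. At 96 h the 3 IDE libraries lie between 38308 and 45014 CPM, above every other group. Against Mi, Ei and ENR this cannot be told apart from the library set.

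The first question was how the members respond within 6 h when EGFR or Mek is inhibited. In Ei, 22 of 75 members were higher than in ENR and none was lower, against a background of 13.3% of all 9380 genes tested higher and 14.9% lower. The members' median log2 change was 0.31, against 0.03 over all genes. By complex, 8 of 34 members of complex I, 0 of 4 of complex II, 1 of 8 of complex III, 6 of 12 of complex IV and 7 of 17 of complex V rose. In Mi, 6 of 75 were higher than in ENR and none lower (background 10.2% higher, 12.9% lower; median 0.13 against 0.01), a share below the background. With Wnt and Notch also inhibited, 25 of 75 rose in IDM over ID and none fell (background 9.71% higher, 10.9% lower; median 0.32 against 0.03). In IDE over ID, 5 rose and none fell (background 9.97% higher, 12.5% lower; median 0.09 against 0.03), again a share below the background. In IDM the rises were spread over 9 of 34 members of complex I, 2 of 4 of complex II, 3 of 8 of complex III, 4 of 12 of complex IV and 7 of 17 of complex V. Those 7 include Atp5s and Atp5sl, and the 7 of complex V in Ei include Atp5sl. Without Ei library 1 the Ei count was 11, and without ENR library 3 the Mi count was 2. The IDM count was 11 without IDM library 1 and 16, 14 and 12 without ID library 1, 2 and 3 in turn. The IDE count was 3 without IDE library 1, ID library 2 or ID library 3.

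Ndufa6, an accessory subunit of complex I, passed the test with each inhibitor at 6 h. Its level was 898, 895 and 709 CPM in IDM, 736, 622 and 623 in IDE, and 449.6, 492 and 469 in ID. It was 694, 592 and 615 in Mi, 777, 702 and 632 in Ei, and 438, 454 and 479 in ENR. All 12 libraries with an EGFR or Mek inhibitor stood above all 6 without one. The log2 change was 0.82 ± 0.13 for IDM over ID (SE, edgeR adjusted p = 1.3e-05), and 0.62 ± 0.13 for Ei over ENR (adjusted p = 0.00039). It was 0.48 ± 0.13 for IDE over ID (adjusted p = 0.0058) and 0.47 ± 0.13 for Mi over ENR (adjusted p = 0.007; not passed without Mi library 1). Ndufb5, another accessory subunit, rose in IDM (0.67 ± 0.15, adjusted p = 0.0011) and IDE (0.44 ± 0.15, adjusted p = 0.034) over ID. Its log2 change was 0.01 ± 0.15 in Ei over ENR (adjusted p = 0.96).

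Of complex IV, Cox7a2l passed the test in the same 4 comparisons. It was at 554, 481 and 419 CPM in IDM, 506, 449 and 451 in IDE, and 342, 321 and 288 in ID. It was at 422, 435 and 397 in Mi, 534, 502 and 475 in Ei, and 342, 315 and 248 in ENR. Again the inhibitor libraries stood above the others without overlap. The log2 change was 0.74 ± 0.13 for Ei over ENR (edgeR adjusted p = 6.2e-05) and 0.62 ± 0.14 for IDM over ID (adjusted p = 0.00091). It was 0.57 ± 0.14 for IDE over ID (adjusted p = 0.0018) and 0.47 ± 0.14 for Mi over ENR (adjusted p = 0.0095; not passed without ENR library 3). Cox6c, a small membrane subunit, was at 692, 867 and 754 CPM in Mi, 968, 769.5 and 719 in Ei, and 571, 598 and 538 in ENR. Both inhibitor groups lay above ENR, Ei by 0.52 ± 0.13 (edgeR adjusted p = 0.0025). The change in Mi was 0.44 ± 0.13 (adjusted p = 0.013) and did not pass without ENR library 3 or Mi library 2. Cox4i1 and Cox6a1, the widely expressed isoforms of their subunits, rose in Ei by 0.63 ± 0.18 (adjusted p = 0.0087) and 0.57 ± 0.14 (adjusted p = 0.0026).

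Of complex V, the δ subunit gene Atp5d was at 421, 355 and 349 CPM in Ei and 242, 255 and 227 CPM in ENR (log2 change 0.63 ± 0.13, edgeR adjusted p = 0.00042). The c subunit gene Atp5g2 was at 1111, 902 and 903 CPM in Ei and 663, 639.8 and 666 CPM in ENR (0.57 ± 0.13, adjusted p = 0.00081). Neither overlapped between the groups. Atp5h, of the peripheral stalk, was at 1679, 1616 and 1376 CPM in IDM and 1101, 994 and 996 CPM in ID, and rose by 0.60 ± 0.13 (adjusted p = 0.00064). Atp5sl, which matches the rule by its symbol but is known for the assembly of complex I, was at 48.8, 60.5 and 67.0 CPM in IDE and 35.8, 31.7 and 31.8 CPM in ID. It rose by 0.88 ± 0.21 (adjusted p = 0.0015).

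After 6 h of Wnt and Notch inhibition by itself, ID against ENR gave 0 of 75 members past the threshold by edgeR, with 3 at an unadjusted p under 0.05 and 0 by DESeq2 (background 0.0746% higher, 0.149% lower). Mi and Ei at 6 h also differed in 0 of 75 members by edgeR and by DESeq2, with 10 at an unadjusted p under 0.05 (background 0.0107% higher, 0.0853% lower). Of the 75 fitted values, 68 lay lower in Mi (median −0.19 against −0.01 over all genes). Of the 22 members that rose in Ei over ENR and the 25 that rose in IDM over ID, comparisons that share no library, 12 were the same genes, which is 54.5% and 48.0% of the lists. Over all 9380 genes tested, 596 were higher in both, which is 47.9% of 1245 and 65.4% of 911, so this overlap is not called particular to the members.

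**Figure D2:**
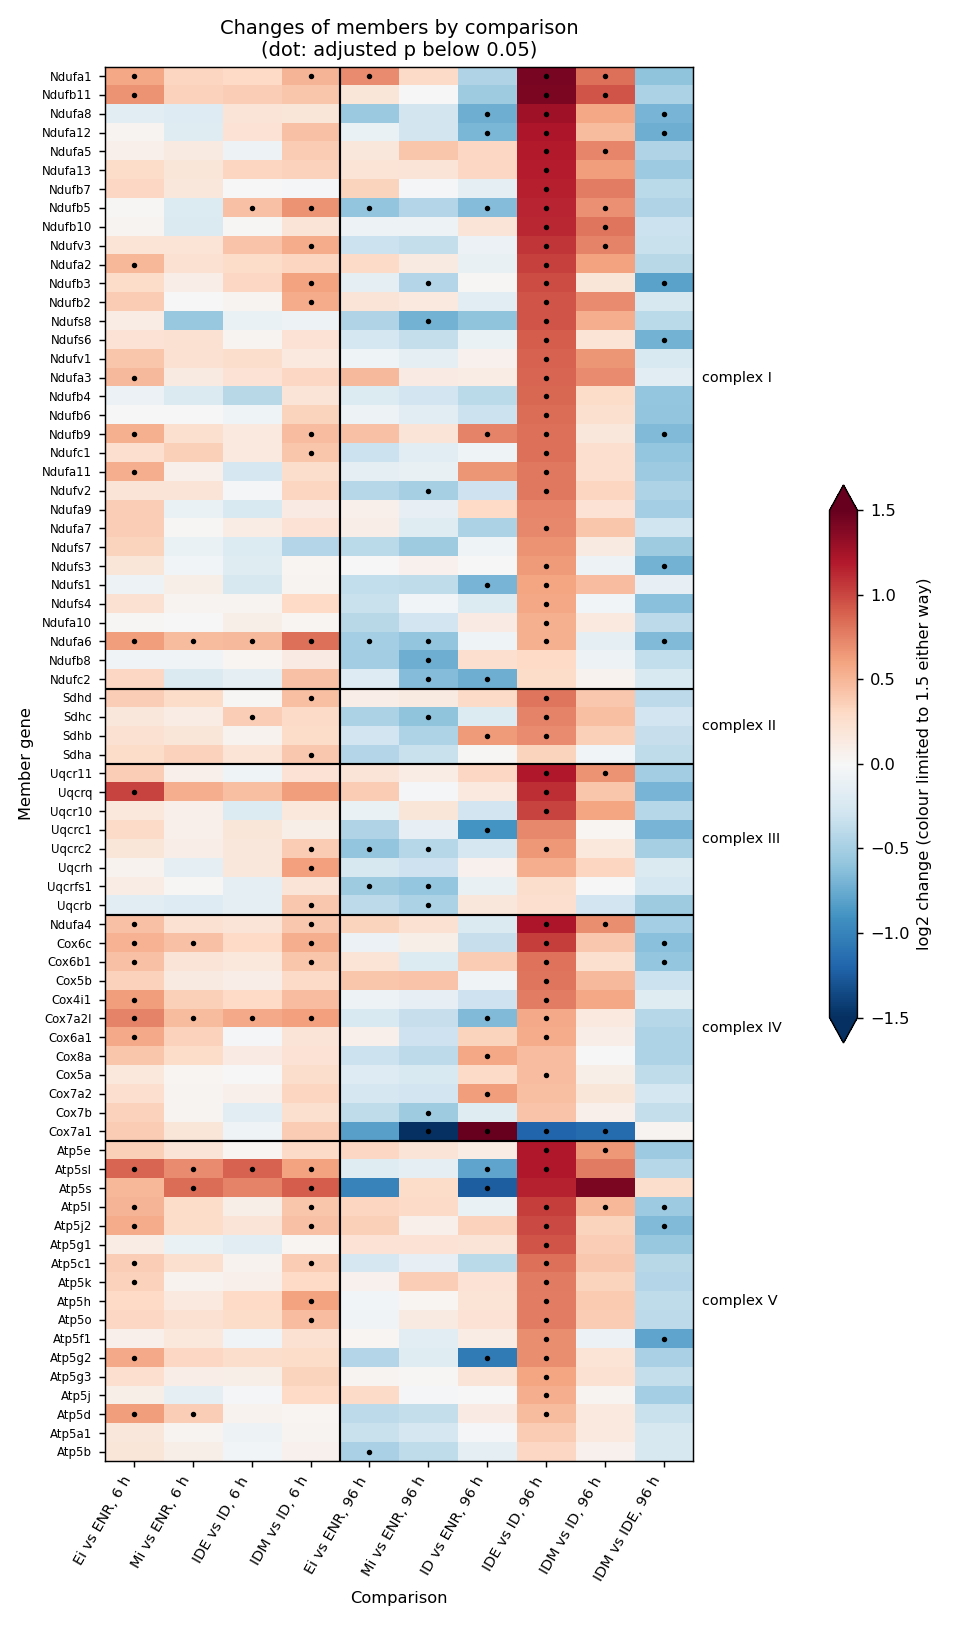
Log2 change of the members tested at 6 h and 96 h, ordered by complex (rows, with 1 of the 75 not drawn), in 10 comparisons (columns), with a dot where the edgeR adjusted p was under 0.05. IDE against ID at 96 h, with 59 of all 75 higher and 1 lower, has more dots than any other column.

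Some markers of Paneth and goblet cells were higher with each inhibitor at 6 h. The summed enteroendocrine markers overlapped between Ei (322.6 to 483.0 CPM) and ENR (321.2 to 356.2 CPM). All 7 Paneth markers were higher in Ei than in ENR, with summed levels of 2590.6 to 4121.4 CPM in Ei and 1530.8 to 2019.6 CPM in ENR. Of 7 goblet markers, 6 were higher and 1 lower (2604.5 to 3245.5 CPM in Ei, 1586.1 to 1743.5 CPM in ENR). All 7 Paneth markers were also higher in IDM than in ID (2364.3 to 4145.3 CPM in IDM, 1812.9 to 2091.5 CPM in ID), and of the goblet markers 3 were higher and 1 lower (2461 to 2559 CPM in IDM, 1615 to 1870.0 CPM in ID). In Mi over ENR, 3 of 7 Paneth markers were higher (2345 to 2901 CPM in Mi), and 4 goblet markers were higher and 1 lower (2037 to 2318 CPM in Mi). In IDE over ID, 1 Paneth marker was higher (2012 to 2692 CPM in IDE), and 2 goblet markers were higher and 1 lower (2147 to 2766 CPM in IDE). Of 5 stem cell markers tested, 2 were higher in Ei and 3 in Mi than in ENR. The summed level of all 7 listed was 1969 to 2184 CPM in Mi, 1709.7 to 2100.3 CPM in Ei and 1427 to 1565 CPM in ENR. Summed markers of dividing cells were 1231 to 1286 CPM in Mi and 1136 to 1276 CPM in Ei, below 1296 to 1456 CPM in ENR. Summed enterocyte markers were 2267 to 2457 CPM in Mi, above 1527 to 2096 CPM in ENR, and Ei overlapped ENR. For both these sums, IDE and IDM overlapped ID. The part of these cell types in the members' change was not tested.

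After 96 h in ENR medium few members were higher with either inhibitor. In Ei, 1 of 75 was higher than in ENR and 5 were lower (background 9.45% higher, 8.92% lower; median log2 change −0.13 against 0.02 over all genes), shares below the background. In Mi, 0 were higher and 12 lower (background 11.5% higher, 11.8% lower; median −0.15 against 0.02): 6 of complex I, 1 of complex II, 3 of complex III, 2 of complex IV and none of complex V. Mi and Ei differed in 0 of 75 members by edgeR and by DESeq2, with 5 at an unadjusted p under 0.05 (background 0.086% higher, 0.996% lower). These counts moved with single libraries. The Ei count of 6 was 11 without Ei library 3, 1 without Ei library 1 or ENR library 3, and 3 without Ei library 2, ENR library 1 or ENR library 2. The Mi count of 12 was 4 and 6 without ENR library 1 and 3, and 7, 3 and 5 without Mi library 1, 2 and 3. Cell-type markers moved strongly in the same comparisons. All 7 Paneth markers were higher with each inhibitor, with summed levels of 24615 to 25632 CPM in Mi, 27938 to 43639 CPM in Ei and 2388 to 2772 CPM in ENR. Of 5 enteroendocrine markers tested, 3 were higher in Mi and 4 in Ei (1726 to 2063 CPM in Mi, 2566 to 3022 CPM in Ei, 276 to 378 CPM in ENR). All 7 markers of dividing cells were lower with each (451 to 542 CPM in Mi, 386 to 483 CPM in Ei, 1194 to 1305 CPM in ENR). Their part in the members' change was not tested.

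Of complex I, Ndufa1, a small accessory subunit of the membrane arm, was the member that rose in Ei at 96 h. It was at 564, 781 and 629.9 CPM in Ei and 492, 359 and 344 CPM in ENR, without overlap. The log2 change of 0.71 ± 0.20 (edgeR adjusted p = 0.011) did not pass without Ei library 2, ENR library 2 or ENR library 3. Ndufa6, high at 6 h, was at 650.1, 491 and 554 CPM in Mi, 439, 744 and 649 in Ei, and 928, 818 and 811 in ENR at 96 h. Both inhibitor groups now lay below ENR, with a log2 change of −0.59 ± 0.18 in Mi (adjusted p = 0.013) and −0.51 ± 0.18 in Ei (adjusted p = 0.049). The change in Ei did not pass without Ei library 1 or any of the 3 ENR libraries. Ndufb8 fell in Mi, to 137, 128 and 141 CPM, against 201, 229 and 243 CPM in ENR (−0.73 ± 0.18, adjusted p = 0.003).

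Sdhc, the membrane subunit that anchors complex II, was at 139, 114 and 118 CPM in Mi and 204, 172 and 190.4 CPM in ENR at 96 h. The change of −0.60 ± 0.18 (edgeR adjusted p = 0.012) did not pass without ENR library 1, Mi library 2 or Mi library 3. Of complex III, Uqcrfs1, the Rieske iron-sulfur protein, was at 367, 375 and 390.5 CPM in Mi, 336, 452 and 404 in Ei, and 627, 503 and 566 in ENR. It fell with both inhibitors, by 0.58 ± 0.16 in Mi (adjusted p = 0.0074) and by 0.53 ± 0.17 in Ei (adjusted p = 0.025) on the log2 scale. Uqcrc2, a core protein of complex III, was at 226, 273 and 291 CPM in Ei and 393, 404 and 375 CPM in ENR (−0.59 ± 0.17, adjusted p = 0.012; not passed without Ei library 1). Atp5b, the catalytic β subunit of the ATP synthase, fell in Ei, to 655, 626 and 705 CPM, against 881, 898 and 999 CPM in ENR (−0.48 ± 0.16, adjusted p = 0.032).

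The change between the times was tested itself, as the 96 h response minus the 6 h response, each taken within its own time. For Ei, 13 of 75 members had a lower response at 96 h than at 6 h and none a higher one (background 6.73% lower, 5.45% higher; median −0.47 against 0.00 over all genes). For Mi, 12 were lower and none higher (background 7.54% lower, 5.58% higher; median −0.30 against 0.03), with 7 and 6 lower when Mi 96 h library 2 and 3 were left out. Thinned to equal totals, the libraries gave 4 for Ei and 2 for Mi, and scaling by library totals alone gave 5 for Mi. Ndufa6 had the smallest adjusted p of the members in both, at −1.18 ± 0.22 for Ei (edgeR adjusted p = 9.8e-05) and −1.09 ± 0.21 for Mi (adjusted p = 0.00021). For Ei, Atp5g2 came next with −1.04 ± 0.20 (adjusted p = 0.00028), then Atp5d with −1.05 ± 0.22 (adjusted p = 0.00053) and Cox7a2l with −1.01 ± 0.23 (adjusted p = 0.0015). For Mi, Cox7a1 came next with a fitted −4.28 ± 0.87 (adjusted p = 0.0004), which rests on 1 count in the Mi libraries at 96 h and is no bound. Cox7a2l followed with −0.84 ± 0.22 (adjusted p = 0.0065) and Atp5d with −0.75 ± 0.21 (adjusted p = 0.0097). Both tests use the same ENR libraries. Libraries of 1 treatment with the same number deviated together between the times: over the 75 members, their deviations from the group means correlated with a median of 0.412, and in 17 of 18 such pairs the correlation was over 0.1. With treatment and number as a replicate block across the times, a fit added after seeing the data, 21 members were lower for Ei and 18 for Mi, and none was higher.

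Between ID and ENR at 96 h single members differed in both directions, and this comparison cannot be told apart from the library set. Relative to ENR, ID held 5 higher and 10 lower of 75 members (background 19.7% higher, 18.3% lower; median −0.05 against −0.02), shares below the background, and the total was 9 without ENR library 2 or ID library 1. Cox7a1, known as the heart and muscle isoform of subunit 7a of complex IV, was at 98.7, 72.3 and 111 CPM in ID and 7.83, 8.44 and 12.1 CPM in ENR. It rose by 3.30 ± 0.31 on the log2 scale (edgeR adjusted p = 4.7e-10), the largest change of any member in this comparison. The widely expressed isoform Cox7a2 was at 159.7, 207 and 186 CPM in ID and 119, 103 and 132 CPM in ENR (0.63 ± 0.23, adjusted p = 0.031). Cox7a2l fell, to 296, 348 and 245 CPM in ID, against 541, 443 and 414 CPM in ENR (−0.66 ± 0.18, adjusted p = 0.0048). Of the 3 genes that encode the same mature c subunit, Atp5g2 fell, to 388, 378 and 320.1 CPM in ID, against 792, 712 and 763 CPM in ENR (−1.06 ± 0.17, adjusted p = 8.2e-06). Atp5g1, at 359, 309 and 258 CPM in ID and 278, 266 and 265 CPM in ENR, overlapped between the groups. Ndufs1, which carries iron-sulfur clusters in the core of complex I, fell by 0.70 ± 0.18 (adjusted p = 0.0025), and Ndufb9, an accessory subunit, rose by 0.75 ± 0.18 (adjusted p = 0.0015). Markers moved with this comparison as well. All 7 goblet markers (24809 to 43276 CPM in ID, 1671 to 1998 CPM in ENR) and 6 of 7 enterocyte markers (8575 to 10942 CPM in ID, 1123 to 1220.1 CPM in ENR) were higher. All 7 markers of dividing cells (167 to 397 CPM in ID, 1194 to 1305 CPM in ENR) and all 5 stem cell markers tested were lower. Their part in the members' change was not tested.

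The largest movement of the members came when EGFR inhibition was added to Wnt and Notch inhibition for 96 h. In IDE, 59 of 75 members were higher than in ID and 1 was lower, against a background of 10.8% of 8135 genes higher and 13.1% lower, and 74 of 75 had a positive log2 change. The members' median log2 change was 0.79, against −0.03 over all genes tested. Every complex held members that rose: 30 of 34 of complex I (median 0.87), 3 of 4 of complex II (0.72) and 4 of 8 of complex III (0.69). So did 8 of 12 of complex IV, with 1 lower (0.56), and 14 of 17 of complex V (0.77). Leaving out each library in turn gave totals of 43 to 56, and thinning all libraries to the smallest total gave 39.

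The complex I genes Ndufa1 and Ndufa12, both accessory subunits, rose most clearly. Ndufa1 was at 823, 998 and 505 CPM in IDE and 321, 273 and 275 CPM in ID (log2 change 1.43 ± 0.20, edgeR adjusted p = 3.7e-06). Ndufa12 was at 1613, 1528 and 1409 CPM in IDE and 619, 778 and 572 CPM in ID (1.21 ± 0.19, adjusted p = 1.3e-05). The IDE libraries of both genes lay well above the ID libraries, although IDE library 3 of Ndufa1 was low within its group. Ndufa8 was at 513, 496 and 407 CPM in IDE and 145, 266 and 188 CPM in ID (1.28 ± 0.20, adjusted p = 1.7e-05). Ndufb10 was at 238, 239 and 234 CPM in IDE and 101, 108 and 117 CPM in ID (1.13 ± 0.18, adjusted p = 2e-05).

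Sdhc of complex II was at 299, 297 and 214 CPM in IDE and 133, 184 and 177 CPM in ID at 96 h (0.74 ± 0.18, edgeR adjusted p = 0.0035). Uqcrc2 of complex III was at 513, 500.2 and 536 CPM in IDE and 321, 365 and 301 CPM in ID (0.65 ± 0.16, adjusted p = 0.0032). Neither overlapped. Uqcrfs1, which fell with the inhibitors in ENR medium, had a log2 change of 0.26 that did not pass (adjusted p = 0.26), from 651, 647 and 587 CPM in IDE and 433, 558 and 586 CPM in ID.

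Within complex IV, Cox7a1 fell while other members rose, and a difference between the 7a isoforms was not tested. Cox6c was at 965, 1099 and 945 CPM in IDE and 476, 486 and 507 CPM in ID (1.04 ± 0.15, edgeR adjusted p = 4.3e-06), and Cox6b1 rose by 0.82 ± 0.17 (adjusted p = 0.00053). Cox7a2l rose by 0.57 ± 0.19 (adjusted p = 0.024), with overlapping libraries at 424, 545 and 329.6 CPM in IDE and 296, 348 and 245 CPM in ID. It did not pass without ID library 1, ID library 3 or IDE library 2. Cox7a2 had a log2 change of 0.45 (adjusted p = 0.16). Cox7a1 fell, to 49.2, 44.6 and 28.3 CPM in IDE, against 98.7, 72.3 and 111 CPM in ID (−1.19 ± 0.29, adjusted p = 0.0024), and was the single member to fall. It also fell in IDM, to 57.8, 43.0 and 30.3 CPM (−1.15 ± 0.33, adjusted p = 0.017; not passed without ID library 3, IDM library 2 or IDM library 3). In ENR medium Cox7a1 had 1 count over the 3 Mi libraries and 44 counts over the 3 ENR libraries at 96 h. The ratio of depth-scaled counts was 0.0464 (95% interval 0.00115 to 0.272, counting error only). In Ei it was at 1.72, 12.4 and 9.40 CPM.

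In complex V, Atp5e, the ε subunit of the rotor stalk, was at 499.7, 505 and 520.2 CPM in IDE and 221, 223 and 218 CPM in ID, with a spread within each group far below the difference. It rose by 1.20 ± 0.18 (edgeR adjusted p = 5.7e-06). All 3 c subunit genes rose, Atp5g1 by 0.95 ± 0.18 (adjusted p = 0.00027), Atp5g2 by 0.70 ± 0.17 (adjusted p = 0.0029) and Atp5g3 by 0.59 ± 0.16 (adjusted p = 0.0059). Atp5g3, whose promoter holds the ERR and E-box motifs, was at 3639.8, 3748 and 3255 CPM in IDE and 2102, 2535 and 2452 CPM in ID. By motif, of the 50 members higher in IDE with a promoter entry, 14 (28.0%) held the ETS motif, 8 (16%) YY1, 7 (14%) NRF1, 7 (14%) the E-box and 2 (4.0%) ERR. Of the 14 tested members with an entry that were not higher, 2 (14.3%) held ETS, 3 (21.4%) YY1 and 1 (7.14%) NRF1, and none held the E-box or ERR motif. This split was not tested.

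**Figure D3:**
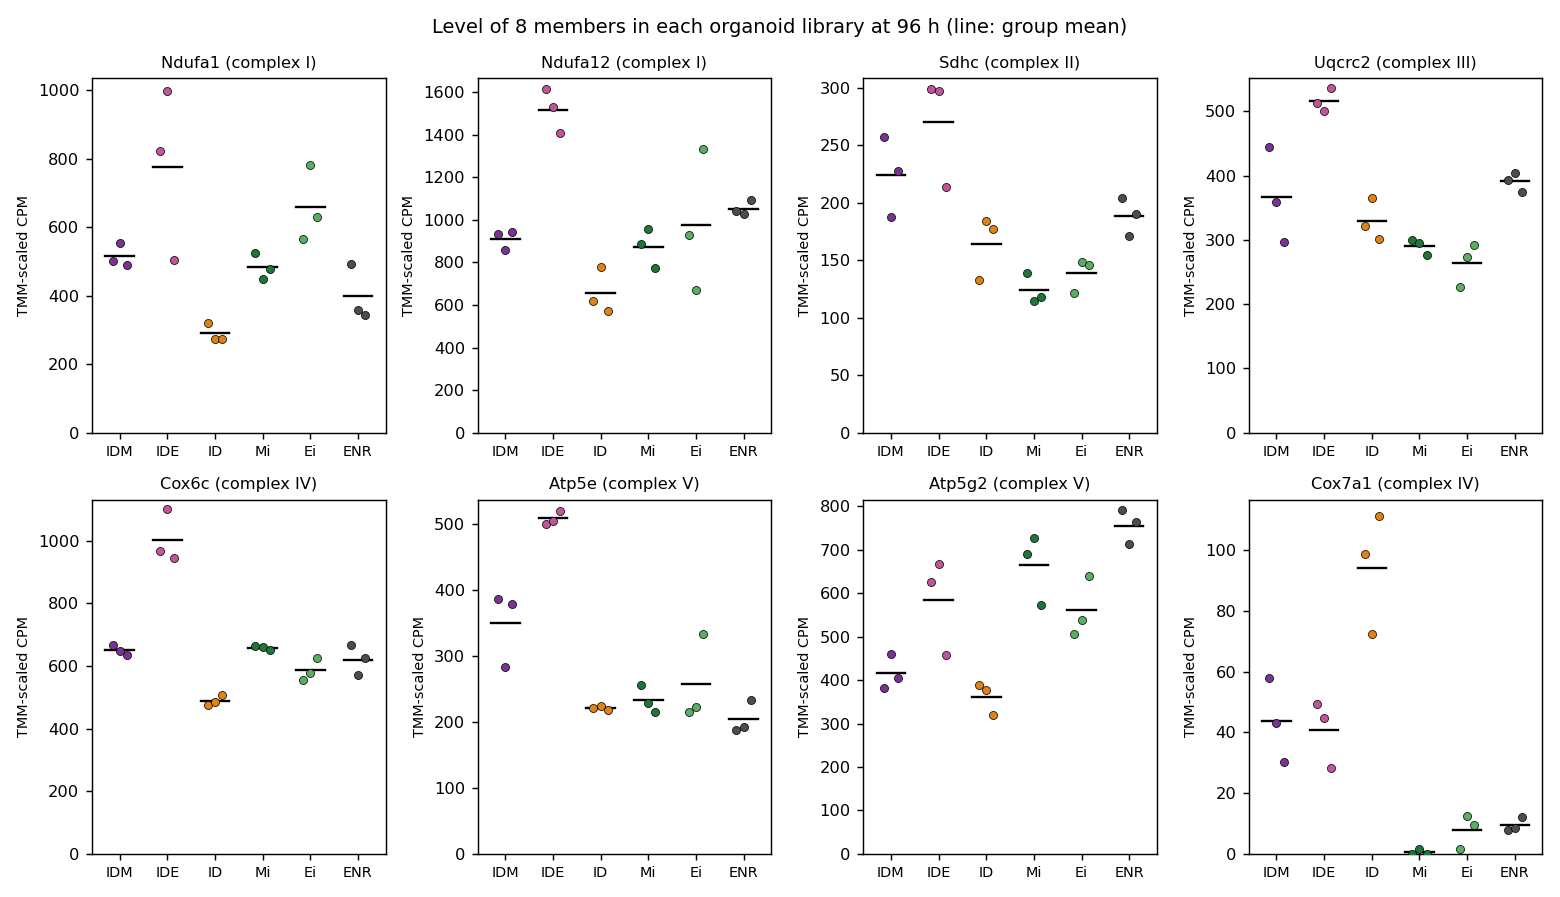
Level (CPM) at 96 h of Ndufa1, Ndufa12, Sdhc, Uqcrc2, Cox6c, Atp5e, Atp5g2 and Cox7a1 in each group, with libraries as points and a line at the group mean. All but Cox7a1 are higher in IDE than in ID, and Cox7a1 is highest in ID, at 72.3 to 111 CPM. ID against Mi, Ei and ENR cannot be told apart from the library set.

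Mek inhibition added to Wnt and Notch inhibition gave a smaller rise. In IDM, 10 of 75 members were higher than in ID and 1 lower (background 5.37% higher, 8.15% lower), with 66 positive and a median of 0.33 against 0.00 over all genes. By complex, 6 of complex I, 1 of complex III, 1 of complex IV and 2 of complex V rose. Ndufb10 was at 187, 181 and 201 CPM in IDM and 101, 108 and 117 CPM in ID (0.80 ± 0.19, edgeR adjusted p = 0.0047). Ndufa1 was at 502, 553 and 489 CPM in IDM and 321, 273 and 275 CPM in ID (0.83 ± 0.21, adjusted p = 0.0068). Neither overlapped. Atp5e was at 387, 283 and 379 CPM in IDM and 221, 223 and 218 CPM in ID (0.65 ± 0.19, adjusted p = 0.016; not passed without ID library 1, IDM library 1 or IDM library 3). The total of 11 was 6 and 5 without ID library 1 and 3, and 4, 5 and 7 without IDM library 1, 2 and 3.

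IDM and IDE were compared directly. In IDM, 12 of 75 members were lower than in IDE and none was higher (background 2.57% lower, 2.13% higher), with 73 of 75 fitted values lower and a median of −0.43 against −0.01 over all genes. These 12 were 7 of complex I, 2 of complex IV and 3 of complex V. Ndufb3, an accessory subunit of complex I, was at 351, 283 and 299.7 CPM in IDM and 558, 618 and 430.1 CPM in IDE (−0.80 ± 0.17, edgeR adjusted p = 0.0052). Atp5f1, the b subunit of the peripheral stalk whose promoter is shown above, was at 289, 273 and 311 CPM in IDM and 519, 542 and 443 CPM in IDE (−0.79 ± 0.18, adjusted p = 0.0082). Cox6c was at 666, 648 and 633 CPM in IDM and 965, 1099 and 945 CPM in IDE (−0.63 ± 0.15, adjusted p = 0.013; not passed without IDE library 2 or IDM library 2). The count was 0 without IDM library 2, 5 without IDM library 3, and 3, 2 and 6 without IDE library 1, 2 and 3.

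Whether the inhibitors act differently with and without Wnt and Notch inhibition at 96 h was tested as a difference of responses. For EGFR inhibition, 41 of 75 members had a higher response with Wnt and Notch inhibited (IDE over ID) than without (Ei over ENR) and none a lower one (background 6.28% higher, 7.84% lower). The median was 0.84 against −0.05 over all genes, and without ENR library 3 the count was 27. Ndufa8 differed most clearly, with a difference of 1.84 ± 0.29 (edgeR adjusted p = 2.7e-05), made of 1.28 ± 0.20 in IDE over ID and −0.56 ± 0.21 in Ei over ENR. Uqcrc2 differed by 1.25 ± 0.23 (adjusted p = 0.00034), made of 0.65 ± 0.16 and −0.59 ± 0.17 in the same order, and Atp5g2 by 1.14 ± 0.24 (adjusted p = 0.0013). For Mek inhibition, 5 of 75 had a higher response with Wnt and Notch inhibited and none a lower one (background 2.35% higher, 3.45% lower; median 0.47 against −0.04). Among them were Ndufb5, at 1.12 ± 0.28 (adjusted p = 0.012), and Sdhc, at 1.05 ± 0.27 (adjusted p = 0.014; not passed without ID library 1). The count of 5 was 3 without ENR library 1, ID library 2, IDM library 1 or any Mi library, and 2 without ENR library 3 or ID library 1. All 7 Paneth markers had a lower response with Wnt and Notch inhibited for both inhibitors, as did 7 goblet markers for EGFR and 6 for Mek inhibition; their part was not tested.

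**Figure D4:**
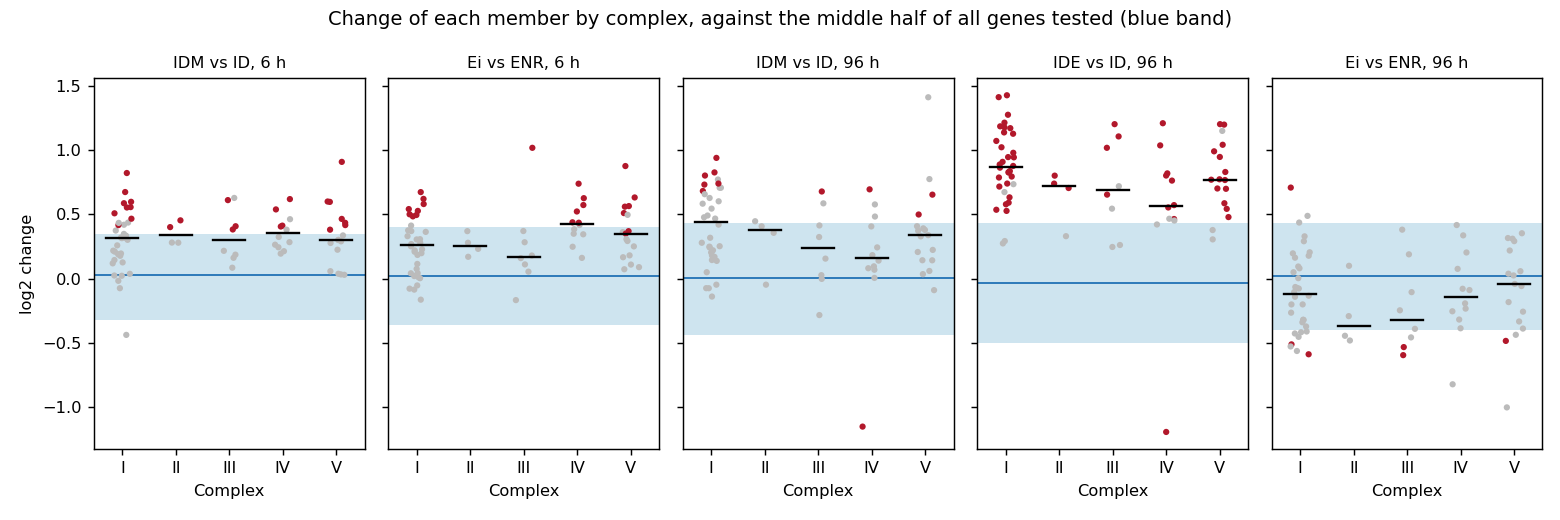
Log2 change of each member by complex in 2 comparisons at 6 h and 3 at 96 h, with red points past adjusted p 0.05, grey points not, a black line at the complex's median and a blue band for the interquartile range of all genes tested. In IDE against ID at 96 h the medians of complexes I to V run from 0.56 to 0.87.

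Other mitochondrial genes moved in IDE at 96 h as well. Of 75 genes of the mitochondrial ribosome, 23 were higher in IDE than in ID and 0 lower (median 0.69; background, as given above, 10.8% higher and 13.1% lower), led by Mrpl13 (1.81 ± 0.34, edgeR adjusted p = 0.00019) and Mrps7 (1.69 ± 0.32, adjusted p = 0.00019). Of 35 assembly factors of the respiratory complexes, 9 rose, led by Cox20, which helps mature a core subunit of complex IV. Cox20 averaged 402 ± 27.8 CPM in IDE and 111 ± 23.8 CPM in ID (SD, n = 3 each) and rose by 1.87 ± 0.18 (edgeR adjusted p = 4.4e-09). Of 25 genes of mitochondrial protein import 7 rose, among them Timm13 and Tomm6, and of 21 genes of the citric acid cycle and pyruvate entry 7 rose and 1 fell. Among the glycolysis genes more fell than rose, with 10 of 16 lower and 1 higher (median −0.81). The summed level of all 20 listed overlapped, at 19383.5 to 24929.7 CPM in IDE and 23094.6 to 26057.0 CPM in ID. Gapdh fell by 0.86 ± 0.16 (adjusted p = 0.00018) and Hk1 by 2.50 ± 0.50 (adjusted p = 0.00038). In IDM against ID the mitochondrial ribosome had 3 of 75 higher, the assembly factors 5 of 35, protein import 0 of 25, and glycolysis 10 of 16 lower (background 5.37% higher, 8.15% lower), so the share of the mitochondrial ribosome and of import lay below the background there.

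At 6 h the lists of the mitochondrial ribosome, import and glycolysis held more lower than higher genes. The summed citric acid cycle list did not go that way. It was at 4311 to 4976 CPM in Ei and 3698 to 4263 CPM in ENR. It was at 4402 to 4647 CPM in IDM and 4071 to 4225 CPM in ID. For this list Mi overlapped ENR, and IDE overlapped ID. In Ei over ENR, where 22 members rose and none fell, 14 of 76 mitochondrial ribosome genes fell and 1 rose, and 13 of 25 import genes fell and none rose (background 13.3% higher, 14.9% lower). The ribosome's share of lower genes was near that background. Among the import genes was Hspd1, the mitochondrial chaperonin. Hspd1 averaged 344 ± 19.5 CPM in Ei and 744 ± 24.6 CPM in ENR (SD, n = 3 each; log2 change −1.11 ± 0.13, edgeR adjusted p = 2.7e-08). Of 17 glycolysis genes 9 fell and 2 rose, led by Hk2 (−2.17 ± 0.20, edgeR adjusted p = 1.6e-10). The summed glycolysis list overlapped between Ei (11231 to 15527 CPM) and ENR (14532 to 16126 CPM). It also overlapped between IDM (12710 to 15192 CPM) and ID (14354 to 16172.5 CPM). In IDM over ID, 9 of 25 import genes fell and 1 rose, and 7 of the 17 glycolysis genes fell and 1 rose (background 9.71% higher, 10.9% lower).

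Cell-type markers differed between IDE and ID at 96 h. All 7 markers of dividing cells were lower, with summed levels of 23.2 to 49.2 CPM in IDE and 167.5 to 396.6 CPM in ID. Of 7 goblet markers, 6 were lower (10833.8 to 16426.8 CPM in IDE, 24809.0 to 43275.8 CPM in ID). Of 7 enterocyte markers 4 were lower and 1 higher (3875.7 to 5564.7 CPM in IDE, 8575.1 to 10942.2 CPM in ID), and of 7 Paneth markers 3 were lower and 1 higher (2555 to 5154 CPM in IDE, 4080.5 to 6174 CPM in ID). Meanwhile, 2 of 5 enteroendocrine markers (5201.3 to 7599.4 CPM in IDE, 2382.0 to 3876.6 CPM in ID) and 2 of 4 tuft markers were higher. In IDM over ID, with its smaller change of members, 5 of 7 dividing markers (34.1 to 111.1 CPM in IDM) and 6 of 7 goblet markers (7779.9 to 8483.8 CPM) were lower and 3 of 5 enteroendocrine markers higher (10419.1 to 11106.9 CPM). Summed markers of immune cells reached at most 2.58 CPM in IDE and were at 0 in ID, and those of mesenchyme were 20.6 to 36.6 CPM in IDE and 16.2 to 32.0 CPM in ID. The part of these cell types in the members' change was not tested.

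The sorted set asked how the members differ between cell types. Lgr5+ ENR cells held 17 of 77 members higher and 7 lower than whole ENR organoids (background 5.54% higher, 6.46% lower; median 0.14 against −0.10 over all genes). Scaling by library totals alone turned this split to 11 higher and 17 lower, with a shift of −0.45 in the median of all genes, and without organoid library 2 the total was 7. Sorted cells and organoids come from separate tables, and Ptma alone took 12.2% to 22.3% of the counts in Lgr5+ libraries. Cox7c, a subunit of complex IV, was at 3376 and 3835 CPM in Lgr5+ ENR cells of the GFP line and 2289 and 3647 CPM in those of the DTR line, against 982 and 689.6 CPM in organoids. It rose by 1.97 ± 0.26 (edgeR adjusted p = 7.4e-05). Cox7a1 was at 26.2 and 19.8 CPM in the GFP line and 6.29 and 14.4 CPM in the DTR line, against 232 and 110.0 CPM in organoids (−3.44 ± 0.44, adjusted p = 6.6e-05). Every Lgr5+ ENR library lay above the organoids for Cox7c and below them for Cox7a1. Of the F1 part of the ATP synthase, Atp5d fell by 1.12 ± 0.20 (edgeR adjusted p = 0.0013) and the γ subunit gene Atp5c1 by 0.96 ± 0.22 (adjusted p = 0.0085). Summed markers of dividing cells lay higher in Lgr5+ ENR cells (GFP 1554.8 to 1982.4, DTR 1396.5 to 1717.2 CPM) than in organoids (875.7 to 887.9 CPM). Enterocyte markers lay lower (GFP 121.1 to 230.3, DTR 83.9 to 91.2, organoids 4643.7 to 5646.1 CPM), as did Paneth and goblet markers. The part of these cell types was not tested.

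Dclk1+ ENR cells held 10 of 77 members higher and 12 lower than organoids (background 13.2% higher, 17.1% lower; median 0.22 against −0.14), shares close to the background. The total was 13 without organoid library 2 and 8 when the fit held these groups alone. By complex, which was not tested, complex I had 8 higher and 1 lower, complex IV 2 higher and 1 lower, and complexes II, III and V had 0 higher and 2, 2 and 6 lower. Ndufa1 was at 548 and 469.6 CPM in Dclk1+ ENR cells and 168 and 84.1 CPM in organoids (2.01 ± 0.33, edgeR adjusted p = 0.00023). Atp5b was at 1041 and 1105 CPM in Dclk1+ ENR cells and 2521 and 2421 CPM in organoids (−1.20 ± 0.21, adjusted p = 0.00046). Sdha, the flavoprotein of complex II, fell by 1.65 ± 0.28 (adjusted p = 0.00036). All 7 tuft markers were higher in Dclk1+ cells. Their 2 ENR libraries differed in summed markers of dividing cells (28.6 and 379.3 CPM), Paneth cells (180.0 and 2565.6 CPM) and goblet cells (150.0 and 2355.3 CPM); their part in these values was not tested.

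Dclk1+ and Lgr5+ ENR cells were then set against each other. Dclk1+ cells held 9 of 77 members higher and 18 lower (background 18.9% higher, 19.4% lower; median −0.25 against −0.06). The share of members higher was below the background, and the share lower was near it. By complex, which was not tested, complex I had 8 higher and 3 lower, and complex IV 1 higher and 4 lower. None was higher in complexes II, III and V, where 2, 3 and 6 were lower. Scaling by library totals alone turned the split to 20 higher and 9 lower, with a shift of 0.31 in the median of all genes, so the direction of the list as a whole depends on the scaling. Single members stood far apart. Ndufs3, a core subunit in the arm of complex I that takes up electrons, was at 427 and 586 CPM in Dclk1+ ENR cells, against 2022 and 2129 CPM in the GFP line and 1811 and 1772 CPM in the DTR line of Lgr5+ ENR cells. It fell by 1.93 ± 0.24 (edgeR adjusted p = 8.3e-06). Ndufv3, an accessory subunit of the flavin-binding module of the same arm, was at 1229 and 944 CPM in Dclk1+ ENR cells, against 408 and 440.4 CPM in the GFP line and 316 and 439 CPM in the DTR line, and rose by 1.44 ± 0.24 (adjusted p = 0.00017). Cox7c was at 819.7 and 1063 CPM in Dclk1+ ENR cells, below every Lgr5+ ENR library given above (−1.80 ± 0.25, adjusted p = 3.7e-05), and Sdhc fell by 1.57 ± 0.27 (adjusted p = 0.00021).

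Under EGFR inhibition no member passed in sorted cells. In Lgr5+ cells, Ei against ENR gave 0 of 77 by edgeR, with 21 at an unadjusted p under 0.05 and 2 by DESeq2, both lower (background 2.88% higher, 2.06% lower). Of 77 fitted values, 63 were lower in Ei, with a median of −0.30 against 0.03 over all genes. Fitting the Lgr5+ libraries alone gave 7, leaving out Lgr5-GFP Ei library 1 gave 1, and leaving out Lgr5-DTR ENR library 1 gave 2. The members' summed level was 35914 and 27164 CPM in Ei and 42674 and 43759.7 CPM in ENR in the GFP line, and 35333 and 37527 CPM in Ei and 37282 and 46273 CPM in ENR in the DTR line. In the GFP line Ei lay below ENR, and in the DTR line the groups overlapped. In Dclk1+ cells Ei against ENR gave 0 of 77 by edgeR and by DESeq2, with 4 at an unadjusted p under 0.05 (background 1.1% higher, 2.24% lower; median −0.02 against 0.04), and 1 without Dclk1 ENR library 1. The difference between the responses of Dclk1+ and Lgr5+ cells gave 0 of 77 by edgeR and by DESeq2, with 2 at an unadjusted p under 0.05 (background 0.407% higher, 0.852% lower).

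**Figure D5:**
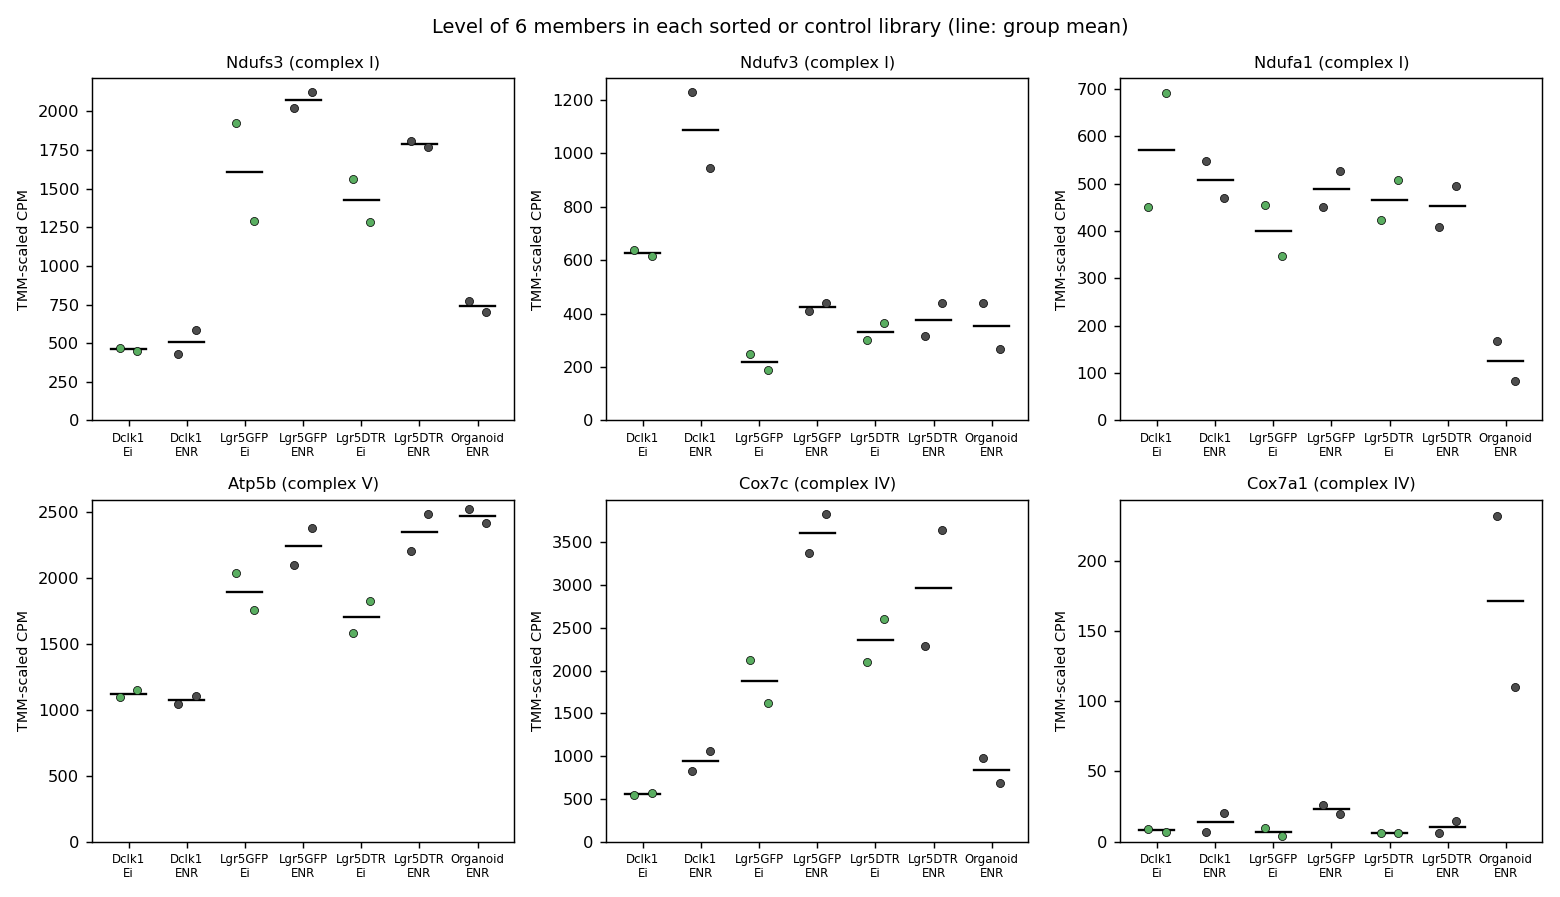
Level (CPM) of Ndufs3, Ndufv3, Ndufa1, Atp5b, Cox7c and Cox7a1 in the 14 libraries of the sorted set, as points with group means. Ndufs3 and Cox7c are lower and Ndufv3 higher in Dclk1+ than in Lgr5+ ENR libraries, and Cox7a1 is highest in whole organoids, at 232 and 110 CPM.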

How the data were processed

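Gene expression was measured by CEL-seq, per the labels' protocols. The deposited values are the authors' raw counts for each gene, which are whole and add up to a different total per library. BWA 0.6.2-r126 and the build mm10 are named in the submitters' processing notes. The counting program, its annotation, its filters, its use of strand and its treatment of molecular identifiers are not given in the sources used here. Of the members, 28 overlap a gene on the other strand in GENCODE M21 and 6 overlap another coding gene on their own strand, so their counts could include reads of that gene.

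The 6 h, 96 h and sorted libraries were fitted as 3 sets with edgeR 4.0.16 in R 4.3.3 (filterByExpr, TMM scaling, glmQLFit, glmQLFTest) over all genes. In each of 23 comparisons, Benjamini-Hochberg adjustment took in all genes tested, with a threshold of 0.05. The change of a response between times came from a joint fit of both sets (10137 genes, 75 members). SE is the size of the log2 change divided by the square root of F. The Lgr5+ lines were compared by the mean of their 2 responses. Depth sets the precision: the thinnest library held 158135 counts. Intervals on count ratios are exact and cover counting error only. Alternatives were DESeq2 1.42.0, library totals without TMM, no filter, libraries thinned to equal totals (seed 7), the compared groups alone, a replicate block with edgeR, each library left out, and, chosen after seeing the data, the sorted set without Ptma. Scripts were tested on simulated data. Tables and figures used Python 3.11.15 with pandas 2.3.3, numpy 2.4.6, scipy 1.17.1 and matplotlib 3.10.9.

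The members and gene lists were chosen with earlier results of these data known. Genes eligible to be named were up to 4 members each way per comparison with the smallest adjusted p among those past the threshold whose libraries did not overlap, the isoform families, the 3 members with the highest mean CPM per complex, up to 4 genes of each other mitochondrial list, and the regulators. Other members were named after their values were seen, and some genes are not reported here. Single-cell libraries and whole-series tables that repeat these counts were not used. Some replicate numbers in the names of sorted libraries differ from those in the titles, which leaves the groups as they were.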

Additional observations from a re-analysis of the deposited data

Results flagged for a closer look

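The responses to an inhibitor that differed by a test of the difference itself are given here. EGFR inhibition at 96 h had a higher response with Wnt and Notch inhibited (IDE over ID) than in ENR medium (Ei over ENR) in 41 members. Among them were Ndufa8 (difference 1.84 on the log2 scale), Ndufb5 (1.72), Uqcrc2 (1.25) and Cox6c (1.12), by edgeR with adjusted p under the threshold in each case. Ndufb5 was higher in IDE than in ID (1.14 ± 0.20, adjusted p = 6.7e-05) and lower in Ei than in ENR (−0.59 ± 0.21, adjusted p = 0.044). Cox6c was higher in IDE than in ID (1.04 ± 0.15) and had a change of −0.09 ± 0.15 in Ei over ENR (adjusted p = 0.75).

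Mek inhibition at 96 h had a higher response with Wnt and Notch inhibited in 5 members, among them Ndufb5 (1.12), Ndufv3 (1.09), Sdhc (1.05) and Ndufb10 (0.88). Ndufb10 was higher in IDM than in ID (0.80 ± 0.19) and had a change of −0.08 ± 0.17 in Mi over ENR (adjusted p = 0.79).

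In ENR medium, the response to EGFR inhibition was lower at 96 h than at 6 h in 13 members, among them Ndufa6 (−1.18), Atp5d (−1.05), Atp5g2 (−1.04) and Cox7a2l (−1.01). The response to Mek inhibition was lower at 96 h in 12 members, among them Cox7a1 (−4.28, where the Mi libraries held 1 count at 96 h, so that the fitted size is not a bound), Ndufa6 (−1.09), Cox7a2l (−0.84) and Atp5d (−0.75). No explanation was tested.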

How the results depend on the processing

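Counts below are members past the threshold in either direction, with the count by the main edgeR fit in brackets, and the cause of a difference was not tested. Of 169 counts under another setting, 140 were within 1.5 times the main count and 29 were not; of 166 with a library left out, 118 were and 48 were not. No named member changed sign; 755 of 816 named results stayed on their side of the threshold under another setting and 61 lost it, and 636 of 760 stayed and 124 lost it with a library left out. Library totals without TMM gave 12 [25] for IDM against ID at 6 h, 4 [12] for IDM against IDE, 27 [41] for the EGFR inhibitor's response with against without Wnt and Notch inhibition, 3 [5] for the Mek inhibitor's, and 5 [12] for the Mi response at 96 h against 6 h. The median of all genes moved by over 0.1 under this scaling for Mi 96 h (0.11, split 2 higher and 6 lower), IDE against ID 96 h (−0.13, split 47 and 1), and IDM against IDE (0.17, split 0 and 4). It also did so for the responses at 96 h against 6 h of Ei (0.12) and Mi (0.12), and Dclk1+ cells against organoids (−0.14, split 8 and 14), beside the sorted comparisons given above. Without a filter the counts were 16 [25] for IDM against ID at 6 h, 5 [11] for IDM against ID at 96 h, 3 [5] for the Mek response, 6 [12] for Mi at 96 h against 6 h and 1 [0] for Lgr5+ Ei. With libraries thinned to equal totals they were 11 [25] for IDM and 3 [5] for IDE against ID at 6 h, 3 [6] for Ei, 5 [12] for Mi, 7 [15] for ID and 39 [60] for IDE at 96 h. They were 2 [12] for IDM against IDE, 19 [41] and 3 [5] for the EGFR and Mek responses, and 4 [13] and 2 [12] for Ei and Mi at 96 h against 6 h. With only the compared groups in the fit they were 10 [6] for Mi and 9 [5] for IDE at 6 h, 9 [5] for the Mek response, 7 [0] for Lgr5+ Ei and 8 [22] for Dclk1+ cells against organoids. DESeq2 gave 11 [5] for the Mek response and 2 [0] for Lgr5+ Ei. Without Ptma no sorted count moved by over 1.5 times.

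With each library left out in turn, counts ran from 11 to 27 for Ei, 2 to 6 for Mi, 3 to 5 for IDE and 11 to 23 for IDM at 6 h. They ran from 1 to 11 for Ei, 3 to 8 for Mi, 9 to 15 for ID, 43 to 56 for IDE and 4 to 9 for IDM at 96 h, and from 0 to 10 for IDM against IDE. They ran from 27 to 49 and 2 to 6 for the EGFR and Mek responses, and from 9 to 17 and 6 to 10 for Ei and Mi at 96 h against 6 h. In the sorted set they ran from 0 to 2 for Lgr5+ Ei, 0 to 1 for Dclk1+ Ei, 7 to 20 for Lgr5+ cells and 13 to 23 for Dclk1+ cells against organoids.

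With the replicate number as a block, the counts were 60 for IDE, 10 for IDM, 15 for ID and 9 for Mi at 96 h, and 22 for Ei and 27 for IDM at 6 h, all within 1.5 times the unblocked counts. Over all genes tested, few pairs of same-numbered libraries within a set deviated together (correlation over 0.1). These were 3 of 45 pairs at 6 h, 3 of 45 at 96 h and 4 of 42 in the sorted set. Pairing within a set was not examined over the members alone, so it is not excluded. Across the times, libraries of 1 treatment with the same number correlated by −0.00355 to 0.147 over all genes (over 0.1 in 3 of 18 pairs), and 17 of the 18 libraries at 6 h correlated best with their own number at 96 h, a hint from the data and not the design. The replicate block across times gave 21 [13] for Ei and 18 [12] for Mi at 96 h against 6 h. Depth limits the counts that fell when libraries were thinned to equal totals.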

Other observations

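Regulators of mitochondrial gene expression were followed beside the members. In IDE against ID at 96 h, where 59 members rose, 0 of the 13 regulators tested of 14 listed passed the edgeR test in either direction, and 0 were at an unadjusted p under 0.05 (median −0.23). Ppargc1a, a coactivator of mitochondrial biogenesis, averaged 30.4 ± 7.57 CPM in IDE and 44.8 ± 13.2 CPM in ID (SD, n = 3 each; log2 change −0.59 ± 0.34, adjusted p = 0.22). Tfam, which packages and transcribes mitochondrial DNA, averaged 75.4 ± 8.39 CPM in IDE and 60.98 ± 8.78 CPM in ID (0.30 ± 0.21, adjusted p = 0.34). At 6 h Pprc1, a growth-induced coactivator related to Ppargc1a, was lower with each inhibitor. It averaged 10.3 ± 2.96 CPM in Ei and 29.8 ± 6.91 CPM in ENR (−1.53 ± 0.36, edgeR adjusted p = 0.0015), and 10.6 ± 4.61 CPM in Mi (−1.49 ± 0.36 against ENR, adjusted p = 0.0021). It averaged 7.45 ± 3.15 CPM in IDM and 5.41 ± 4.06 CPM in IDE, against 31.8 ± 13.1 CPM in ID (−1.87 ± 0.38, adjusted p = 0.00041, and −2.13 ± 0.38, adjusted p = 5e-05). Ppargc1a was higher at 6 h in IDE over ID (1.44 ± 0.34, adjusted p = 0.0015) and in Ei over ENR (1.23 ± 0.32, adjusted p = 0.0036).

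Uqcrq, a complex III subunit, differed between libraries of a group at both times. It was at 395, 1886 and 1563 CPM in Mi, 2659, 1207 and 1483 CPM in Ei, and 1128, 1038 and 471 CPM in ENR at 6 h. Uqcrq was the member of complex III counted as higher in Ei at 6 h, against ENR libraries that include the low library 3. It was at 299, 1341 and 1267 CPM in Mi and 1366, 1081 and 503 CPM in ENR at 96 h. Mi library 1 and ENR library 3 were low at both times.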
